A study of Mus musculus with 28 samples.

Results

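The natriuretic peptide genes Nppa and Nppb and the receptor genes Npr1, Npr2 and Npr3 were followed across 28 mouse hearts. They were taken as every probe set annotated to 1 of these 5 symbols and to no other gene. They are 5 of the 18193 genes named by such probe sets, and they had 7 of the 45037 probe sets tested: 1 each for Nppa, Nppb, Npr1 and Npr2, and 3 for Npr3. Each array carried biotin-labelled RNA of 1 heart, and the study set resistance to thyroid hormone beside activation of PPARalpha, a nuclear receptor that switches on fatty acid oxidation genes.

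The hearts formed 4 groups of 7 animals each. The control group was untreated, and a further control group received WY14643, a synthetic PPARalpha activator. The del337TR group was a deletion strain, here read with the series title as carrying an altered thyroid hormone receptor, and was untreated; the last group was del337TR with WY14643. The labels gave no dose, duration, age, sex, background strain or promoter, and they did not say whether the mutant receptor acted in the heart alone.

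Atrial natriuretic peptide, encoded by Nppa, and B-type natriuretic peptide, encoded by Nppb, are hormones that heart muscle releases when it is stretched. They are cut from precursors by the protease corin, and they bind the receptor encoded by Npr1, a guanylate cyclase that makes cyclic GMP and so relaxes vessels and promotes loss of salt. Npr2 encodes the sister receptor for C-type natriuretic peptide, and Npr3 encodes a receptor with no cyclase domain that takes the peptides up for breakdown. In the adult heart Nppa is mainly an atrial gene, and in the ventricle it is a widely used marker of load and of the return to a fetal programme.

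The promoters of both peptide genes are shown because the genes lie next to each other. Their differences in the treated control hearts had opposite signs, but neither passed (limma adjusted p = 0.727 for Nppa and 0.775 for Nppb). Whether the promoters bear on these differences was not tested. On mouse chromosome 4 (RefSeq, assembly GRCm38.p6), Nppb spans chr4:147985786-147987205 and Nppa spans chr4:148000722-148002074, both on the plus strand, with 13516 bases between the end of Nppb and the start of Nppa. The 250 bases before each annotated start run 5′ to 3′ on that strand, and capitals mark GATAA or its reverse complement TTATC, the letters read by GATA factors such as Gata4. The Nppb window ends inside the gene's RefSeq span, since that span begins at another annotated start further upstream.
Nppa, chr4:148000472-148000721: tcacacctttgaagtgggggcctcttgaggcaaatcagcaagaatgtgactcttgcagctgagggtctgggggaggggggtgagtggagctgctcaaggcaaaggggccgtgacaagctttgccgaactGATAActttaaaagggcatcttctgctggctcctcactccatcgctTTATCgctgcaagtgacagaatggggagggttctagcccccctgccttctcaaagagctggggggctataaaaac
Nppb, chr4:147985650-147985899: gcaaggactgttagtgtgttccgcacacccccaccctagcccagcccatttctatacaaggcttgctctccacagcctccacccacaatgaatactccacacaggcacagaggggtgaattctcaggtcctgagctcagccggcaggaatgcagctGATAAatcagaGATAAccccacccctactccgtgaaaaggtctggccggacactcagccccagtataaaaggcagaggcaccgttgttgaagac

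Each window held 2 matches to GATAA on either strand, with first bases 121 and 75 before the start in Nppa and 94 and 83 before it in Nppb. Of 32817 promoter windows of the same length, 22.6% held at least 1 match to the same motif on either strand. The shares below also count windows with at least 1 match, and the share with 2 matches was not counted. CATTCC, the letters read by TEAD factors, was found on either strand in 12.6% of windows, and Nppb had 1 match, 105 bases before its start, while Nppa had none. AAGTG, a core read by Nkx2-5, was found in 40.7% of windows, and Nppa had 2 matches, 239 and 65 bases before its start, while Nppb had none. AGGTCA, the core site read by nuclear receptors that include the thyroid hormone receptors and PPARalpha, was found in 14.0% of windows and in neither peptide promoter. No matches overlapped. The windows of Npr1, Npr2 and Npr3 held none of the 4 motifs. Those of Npr2 and Npr3 lay wholly inside their genes' RefSeq spans, and that of Npr1 overlapped its gene's span in part. They are therefore not all sequence upstream of the genes. These matches describe letters in a window and not bound sites.

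Signals were the linear Affymetrix values as deposited, scaled so that every array had a trimmed mean of 250.0. The median signal of an array ran from 60.0 to 77.8. No array stood apart in its scale, and all 6 heart muscle markers were bright in every array, with a lowest single signal of 4518.6. Atrial marker signal differed widely between the hearts, and all 5 atrial markers were measured. The summed signal of these markers (Myl4, Myl7, Sln, Bmp10 and Kcnj3) ran from 480.7 to 22847.5 in the controls (median 2041.9) and from 476.0 to 17442.6 in the treated controls (median 3935.4). It ran from 1424.8 to 32417.4 in del337TR (median 9730.0) and from 466.2 to 33933.2 in treated del337TR (median 9762.0). In RNA of whole tissue, fewer cells of a type and less RNA per cell cannot be told apart.

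None of the 7 probe sets differed between groups in any comparison at an adjusted p under 0.05 (limma, Benjamini-Hochberg over all 45037 probe sets). The comparisons share groups, so their values are given side by side and not as independent results. For del337TR against control without treatment, 0 of 7 passed where 0.00222% of all probe sets did, and 1 of 7 had an unadjusted p under 0.05 where 4.01% did. With WY14643 in controls the counts were 0 of 7 (background 0%) and 2 of 7 (background 6.75%), and with WY14643 in del337TR they were 0 of 7 (background 0%) and 0 of 7 (background 5.78%). For del337TR against control under treatment they were 0 of 7 (background 0%) and 2 of 7 (background 8.86%), and for the drug effect in del337TR less that in controls, 0 of 7 (background 0%) and 0 of 7 (background 4.9%). The unadjusted calls were Nppb, Nppa with the dimmest Npr3 probe set, and Nppa with the brightest Npr3 probe set, in that order.

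Nppa, which encodes atrial natriuretic peptide, had its low signals in the treated control hearts. Untreated control signals ran from 8190.7 to 13205.1 with a median of 11837.6. The 7 treated controls, replicates 1 to 7, stood at 2837.7, 14345.3, 11891.8, 4703.4, 14026.9, 4451.9 and 3877.0. So 4 treated hearts lay below every untreated control, 2 lay above every one, and none lay between 4703.4 and 11891.8. The mean was 8019 ± 5145 (SD, n = 7) against 10895 ± 1985 in untreated controls, and the log2 difference was -0.70 ± 0.30 (SE; 95% interval -1.32 to -0.08; limma adjusted p = 0.727). The spread of the treated controls on the log2 scale was an SD of 0.98 against 0.28 in untreated controls. The labels gave nothing that parted the 4 low hearts from the others.

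In the deletion strain 1 heart, treated replicate 1 at 7564.1, lay below every untreated control for Nppa, and none was as low as the 4 treated controls. Untreated del337TR signals ran from 10185 to 18293.6 with a median of 11551.2, and treated del337TR signals ran from 7564.1 to 18238.7 with a median of 12056.6. The treated and untreated del337TR hearts overlapped over most of their range, and their log2 difference was -0.008 ± 0.30 (SE; adjusted p = 0.999). Under treatment, del337TR stood above control by 0.89 ± 0.30 (SE; 95% interval 0.27 to 1.51; adjusted p = 0.428), a difference that shares the treated controls with the one above. The difference between the WY14643 effects in the strains was 0.69 ± 0.43 (SE; adjusted p = 0.956), so the effects were not shown to differ. Without treatment the strains differed by 0.20 ± 0.30 (SE; 95% interval -0.42 to 0.82).

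Nppb, which encodes B-type natriuretic peptide, had its lowest group median in the untreated controls. Their signals ran from 3109.0 to 11301.4 with a median of 4612.5. They left a gap between 4612.5 and 7633.2, with 4 hearts below it and 3 above it. Untreated del337TR signals ran from 7066.8 to 11831.7 with a median of 7190.7. All 7 del337TR hearts lay above the control median, yet the ranges overlapped, since the highest control exceeded all but 1 of the del337TR hearts. The log2 difference was 0.55 ± 0.26 (SE; 95% interval 0.008 to 1.09; adjusted p = 0.999).

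Nppb in treated controls ran from 4238.1 to 9852.3 with a median of 8495.2, a log2 difference from untreated controls of 0.45 ± 0.26 (SE; 95% interval -0.09 to 0.99; adjusted p = 0.775). Its sign was the opposite of that of Nppa in the same arrays. In treated del337TR Nppb ran from 4581.8 to 12986.6 with a median of 11199.9, and the difference from untreated del337TR was 0.31 ± 0.26 (SE). Under treatment the strains differed by 0.40 ± 0.26 (SE), and the WY14643 effects differed by -0.15 ± 0.37 (SE).

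**Figure D1:**
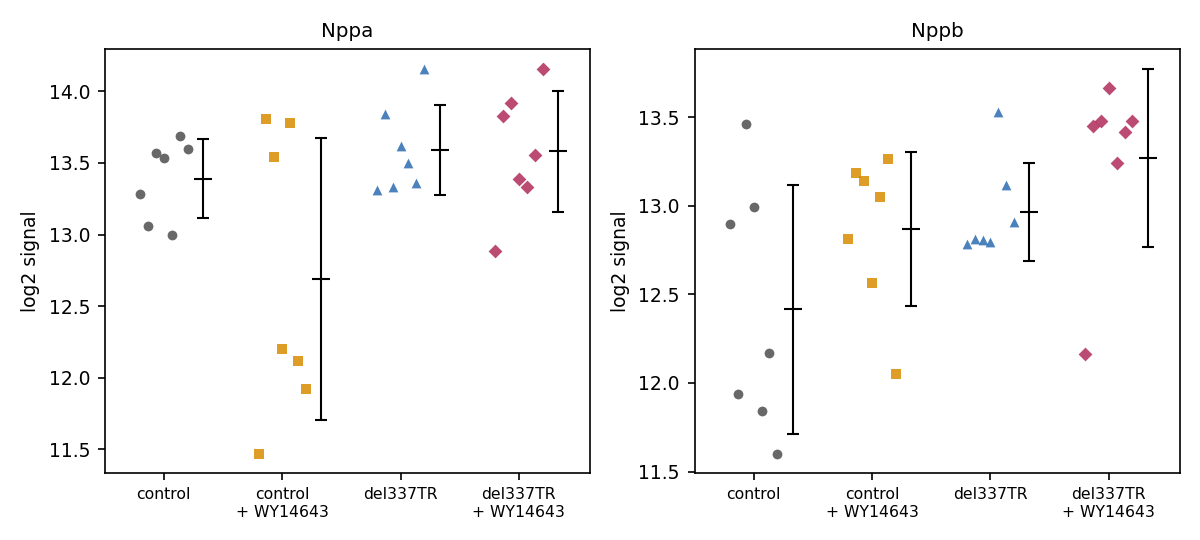
Log2 signal of Nppa (left) and Nppb (right) in each of the 7 hearts of 4 groups; points are single arrays in replicate order and the black bar is the group mean ± SD. The treated controls form a low and a high cluster for Nppa but 1 range for Nppb, and the untreated controls reach lowest for Nppb.

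Within an array the log2 ratio of Nppa to Nppb shows the same data without any array-wide scale. The ratio averaged 0.98 ± 0.67 (SD, n = 7) in untreated controls and -0.18 ± 0.83 in treated controls, a difference of -1.15. An exact two-sided permutation test over the 7 and 7 hearts gave p = 0.0152, and 0.0909 after Benjamini-Hochberg adjustment over the 12 ratio tests run, so the difference did not pass. In 4 of 7 treated controls the ratio was below that of every untreated control. The differences in the other comparisons were -0.35 for strain without treatment, -0.31 for WY14643 in del337TR and 0.49 for strain under treatment, with exact permutation p values of 0.268, 0.174 and 0.187. These ratio tests were chosen after the data were seen.

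The 2 cyclase receptors gave no member that passed. Npr1, the receptor of both peptides, was dim: its single probe set ran from 2.1 to 45.6 over all hearts, below the median signal of every array. Its group medians were 8.5 in controls, 15.8 in treated controls, 8.8 in del337TR and 22.4 in treated del337TR. Every group spanned most of the others' range, and the widest difference, 0.97 ± 0.72 (SE) for WY14643 in del337TR, had an adjusted p of 0.916 and was 0.41 with 16 added to each signal. The files carry no detection calls, so a signal this dim does not show whether the transcript was measured.

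Npr2, the receptor for C-type natriuretic peptide, was the steadiest of the 7 probe sets. Its highest signal over all 28 hearts was 1.40 times its lowest (705.9 against 505.9), and group medians lay at 626.0, 637.3, 559.8 and 616.6 in controls, treated controls, del337TR and treated del337TR. The 95% intervals of its log2 difference ran from -0.25 to 0.12 for strain without treatment and from -0.20 to 0.17 for WY14643 in controls. They ran from -0.14 to 0.23 for WY14643 in del337TR and from -0.19 to 0.18 for strain under treatment. Nppc, which encodes its ligand, had signals of up to 86.1, with group medians of 46.3, 38.8, 41.2 and 42.5 in the same order.

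Npr3, the clearance receptor, was read by 3 probe sets that did not give the same picture; they are called the brightest, the middle and the dimmest by mean signal. The brightest ran from 365.9 to 611.5 in controls (median 451.7) and from 259.8 to 526.8 in treated controls (median 419.5). It ran from 387.8 to 723.5 in del337TR (median 591.0) and from 405.1 to 819.8 in treated del337TR (median 589.1). The groups overlapped, with the higher medians in the deletion strain. The log2 difference of del337TR from control was 0.24 ± 0.18 (SE) without treatment and 0.48 ± 0.18 (SE; 95% interval 0.11 to 0.84; adjusted p = 0.445) under treatment. Without treatment the middle probe set stood at 0.16 ± 0.19 (SE), the dimmest at -0.12 ± 0.22 (SE), of opposite sign, and the mean of all 3 at 0.09 ± 0.16 (SE).

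The dimmest probe set of Npr3 had its lowest signals in the treated controls. Untreated controls ran from 59.7 to 108.3 with a median of 85.9, and treated controls ran from 35.1 to 66.1 with a median of 50.6. In 6 of 7 treated controls the signal was below that of every untreated control. The log2 difference was -0.82 ± 0.22 (SE; 95% interval -1.28 to -0.37), 57th of all 45037 probe sets by unadjusted p, with an adjusted p of 0.628. In del337TR the same probe set ran from 60.7 to 131.5 (median 63.6) and, with WY14643, from 32.1 to 101.8 (median 70.1), a difference of -0.25 ± 0.22 (SE). The WY14643 effects differed between strains by 0.57 ± 0.31 (SE; adjusted p = 0.956). The middle probe set had group medians of 86.7, 95.8, 89.6 and 107.4 and no difference larger than 0.17 in size.

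**Figure D2:**
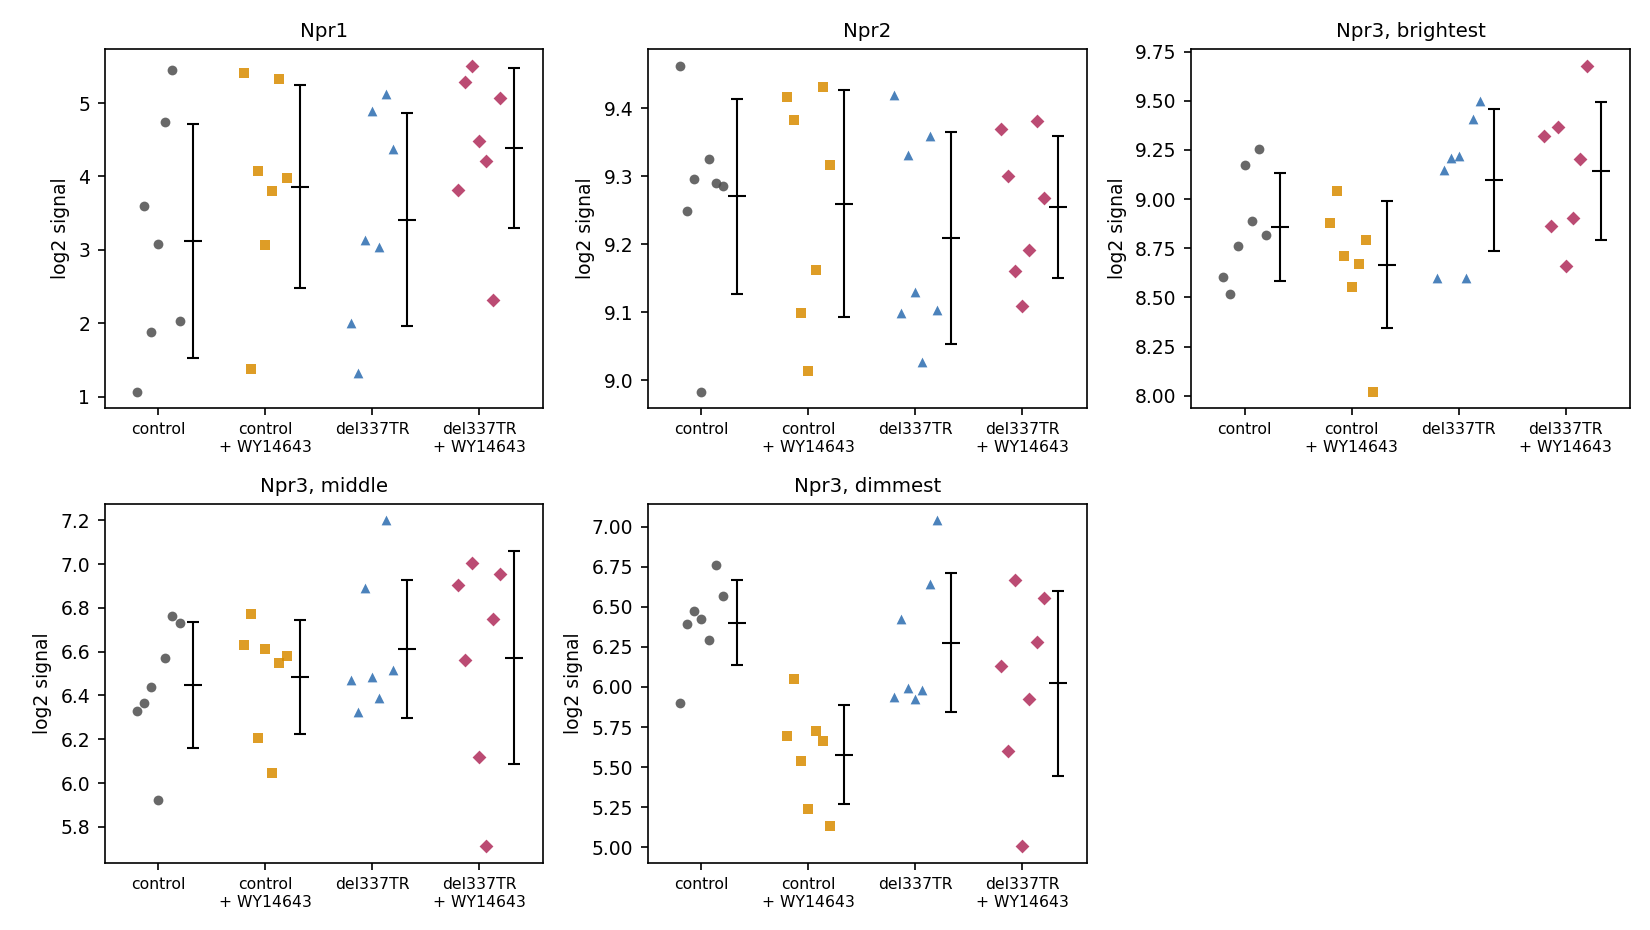
Log2 signal of the 5 receptor probe sets in each heart, with group mean ± SD as black bars; each panel has its own vertical scale. Npr2 spans a narrow band, Npr1 spans several log2 units at dim signals, and the low treated controls appear in the dimmest Npr3 probe set but not in the middle one.

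The ratio of the dimmest to the brightest Npr3 probe set within an array set both against each other. Its log2 mean was -2.46 ± 0.24 (SD, n = 7) in untreated controls and -3.09 ± 0.15 in treated controls, a difference of -0.63. All 7 treated controls lay below all 7 untreated controls, and the exact two-sided permutation p was 0.000583, the smallest that 3432 arrangements allow, or 0.00699 adjusted over the 12 ratio tests. The differences were -0.36 for strain without treatment (exact permutation p = 0.0321, adjusted 0.128) and -0.30 for WY14643 in del337TR (exact permutation p = 0.0938, adjusted 0.225). Under treatment the strains differed by -0.03 (exact permutation p = 0.828). This ratio was tested after the low signals of the dimmest probe set had been seen, so its p restates that pattern and is not independent evidence of it. The treated control median of the dimmest probe set, 50.6, was also below the median signal of every array, and without detection calls it is not known how much of such a signal is transcript. Which transcripts each probe set reads was not tested.

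**Figure D3:**
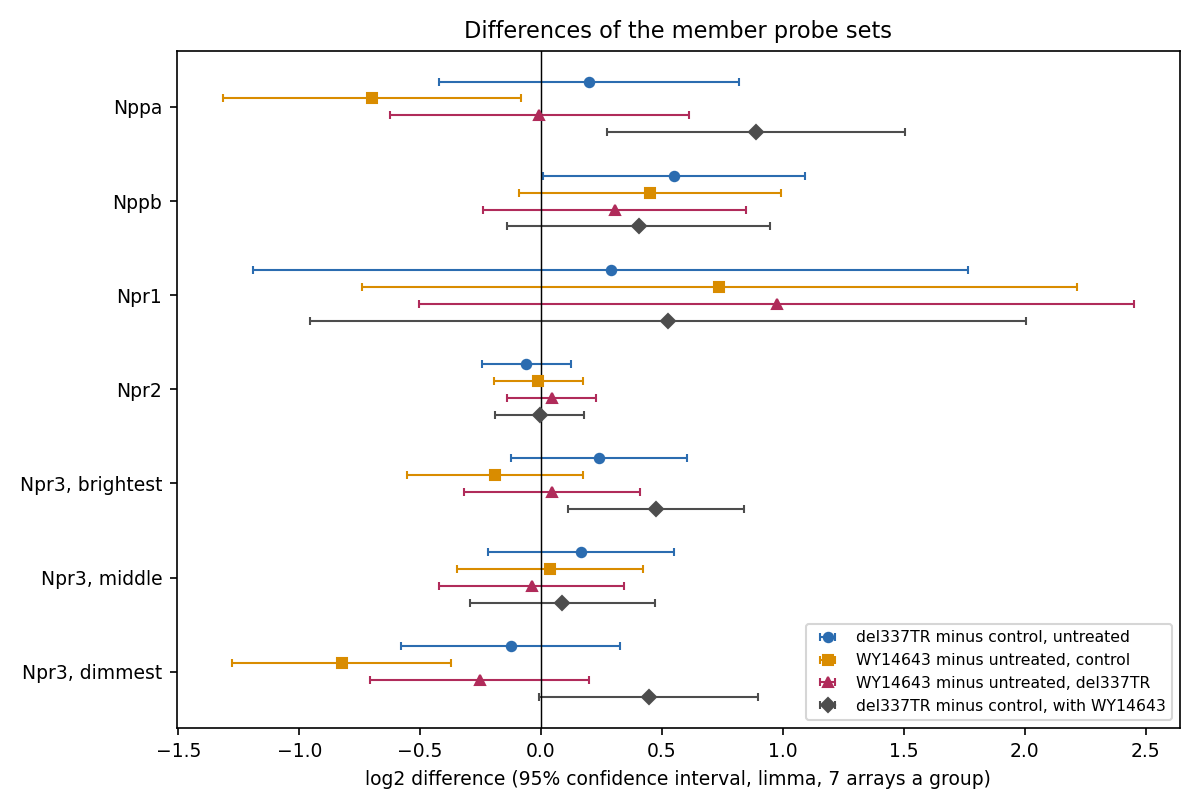
Log2 differences of the 7 probe sets in the 4 group comparisons, with 95% confidence intervals from limma (7 arrays a group). Intervals that leave out 0 belong to Nppb for strain without treatment, Nppa and the dimmest Npr3 for WY14643 in controls, and Nppa and the brightest Npr3 for strain under treatment; none passed after adjustment over all probe sets.

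Across animals, with group means subtracted, no pair of the 5 genes moved together past adjustment over the 10 pairs. Because Nppa in the treated controls fell into separate ranges, relations were also computed over the 21 hearts of the other groups, and within each group. Over those 21 hearts Nppa and Nppb had Pearson r = 0.374 (permutation p = 0.102, adjusted 0.255) and Spearman rho = 0.355 (permutation p = 0.124, adjusted 0.31). Without the 2 hearts farthest from the median of Nppa, r over the remaining hearts was 0.146. Over all 28 hearts r was 0.378 (permutation p = 0.0316, adjusted 0.316) and rho was 0.404 (permutation p = 0.0376, adjusted 0.224), and r was 0.396 without the 2 farthest hearts. So the relation over 21 hearts rested on 2 of them, while that over 28 hearts did not rest on its 2 farthest. Within groups r was 0.307 in controls, 0.55 in treated controls, -0.146 in del337TR and 0.725 in treated del337TR.

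The probe sets of Npr3 were related to each other to different degrees. Over 28 hearts, the brightest and the dimmest had r = 0.779 and rho = 0.773 (permutation p = 1e-05, the smallest these resamples can give, adjusted 3e-05 over 3 pairs). Without the 2 farthest hearts r was 0.778, and within groups it ran from 0.604 to 0.901. For the brightest with the middle, r was 0.431 (permutation p = 0.0363, adjusted 0.0545) and rho was 0.485 (adjusted p = 0.0154 by permutation). For the middle with the dimmest, r was 0.431 (permutation p = 0.0602, adjusted 0.0602) and rho was 0.505 (adjusted p = 0.0154 by permutation). The brightest and the dimmest thus varied together from heart to heart within groups, although their ratio differed between treated and untreated controls.

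An atrial score made from Myl4, Myl7 and Sln was related to some members. The atrial markers Bmp10 and Kcnj3 were left out of it, and their relation to the members was not tested. They did not always share its sign. With WY14643 in del337TR, log2 differences were -0.60 ± 1.07 (SE) for Myl4, -1.19 ± 1.52 for Myl7 and -0.96 ± 1.73 for Sln. Those for Bmp10 and Kcnj3 were 0.385 ± 0.627 and 0.07 ± 0.18 (SE). The atrial score, the mean log2 signal of Myl4, Myl7 and Sln, was related to Npr3 (brightest probe set) with r = 0.501 (permutation p = 0.00729, adjusted 0.0364 over 5 relations) and rho = 0.499 (permutation p = 0.00925, adjusted 0.0231). Without the 2 farthest hearts r was 0.396, and within groups it was 0.678 in controls, 0.0859 in treated controls, 0.808 in del337TR and 0.614 in treated del337TR. For Nppa over the 21 hearts outside the treated controls, r was 0.484 (permutation p = 0.0331, adjusted 0.0828), and rho was 0.618 (permutation p = 0.00503, adjusted 0.0144). Over all 28 hearts Nppa gave r = 0.312 (permutation p = 0.112, adjusted 0.28) and rho = 0.523 (permutation p = 0.00573, adjusted 0.0231). For Nppb the relation had the opposite sign, with r = -0.309 (permutation p = 0.186, adjusted 0.31) and rho = -0.147 (permutation p = 0.513, adjusted 0.642) over 28 hearts. Within groups r for Nppb was -0.607 in controls, 0.0341 in treated controls, -0.758 in del337TR and 0.0601 in treated del337TR, while r for Nppa was 0.391, 0.225, 0.646 and 0.565. Without the 2 farthest hearts r was 0.529 for Nppa over the 21 hearts and -0.198 for Nppb.

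The group differences were also fitted with the atrial score as a covariate. For Nppa they were then -0.75 in controls given WY14643 and 0.84 for strain under treatment, against -0.70 and 0.89 without it, while the untreated strain difference was 0.04 with the score and 0.20 without it. For Npr3 (brightest probe set) the difference under treatment was 0.43 with the score and 0.48 without it, and without treatment it was 0.09 with the score and 0.24 without it. For Nppb the untreated strain difference was 0.69 ± 0.27 (SE; adjusted p = 0.994) with the score.

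**Figure D4:**
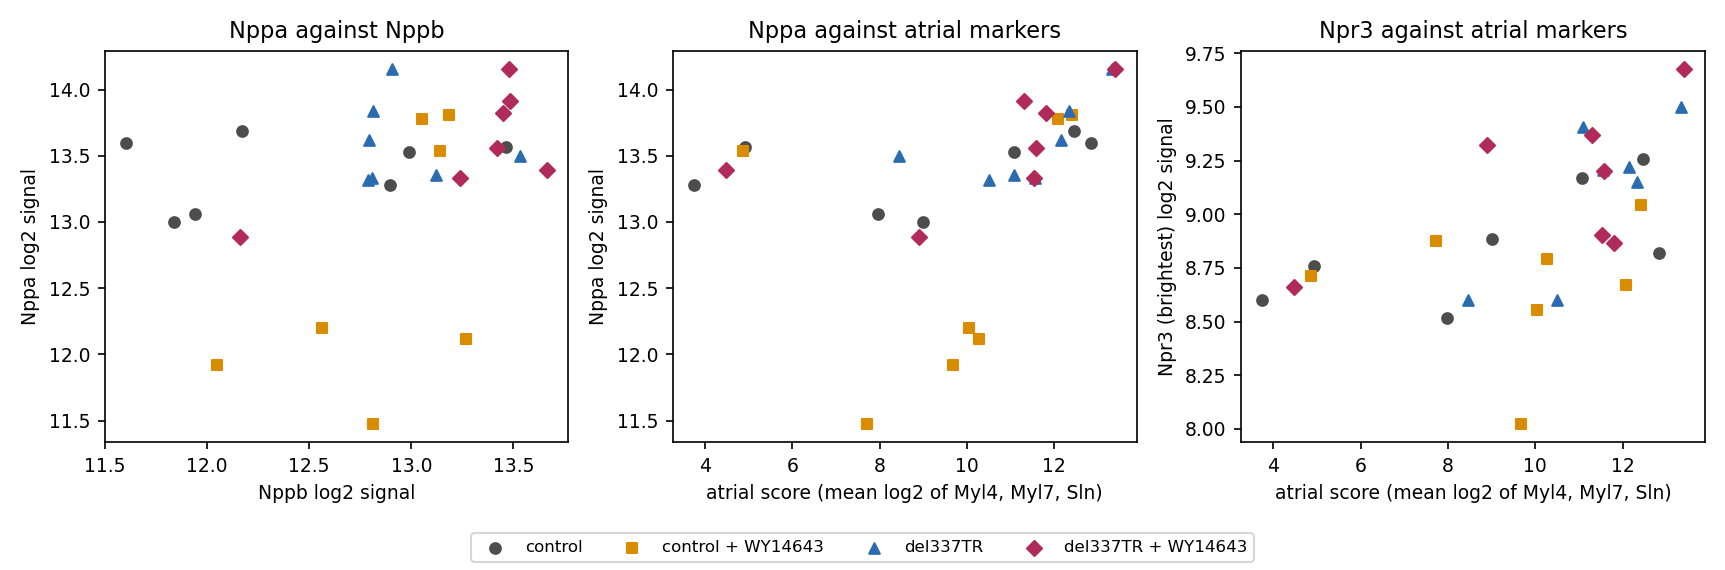
Nppa against Nppb (left), Nppa against the atrial score (middle) and the brightest Npr3 probe set against the atrial score (right), all on log2 axes, with 1 point per heart and markers for the 4 groups. The 4 treated controls with low Nppa lie below every other heart in the left and middle panels, and their atrial scores lie inside the range of the other hearts.

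The genes whose signal followed each member most closely across hearts were named as a description over 28 arrays, which share labelling and scaling. For Nppa they were Gpx3, an extracellular glutathione peroxidase (r = 0.82), Cd44, the hyaluronan receptor (0.804), the tyrosine kinase Syk (0.797), the extracellular chaperone Clu (0.794) and Efhd2 (0.784). Without the treated controls r was 0.816 for Gpx3 and 0.741 for Clu, but 0.444 for Cd44, 0.561 for Syk and 0.551 for Efhd2. The most opposed to Nppa were the carboxylesterase Ces1d (-0.79), Lrtm1 (-0.78) and the mitochondrial acyl-CoA synthetase Acsf3 (-0.767), with r of -0.5, -0.459 and -0.613 without the treated controls.

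For Nppb the closest were Tnfrsf12a, the receptor of the cytokine TWEAK (r = 0.812), Prkar1a, a regulatory subunit of protein kinase A (0.8), Sorbs2 (0.773), galectin-1 gene Lgals1 (0.764) and lactate dehydrogenase gene Ldha (0.758). All 5 stayed between 0.755 and 0.857 without the treated controls. The most opposed were Pxylp1 (-0.838), Mtmr4 (-0.753) and Fbxo31 (-0.742), with r of -0.841, -0.738 and -0.71 without the treated controls. No gene was named for both peptides.

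For Npr3 the closest were the IGF-binding protein gene Igfbp4 (r = 0.824), the mitochondrial carboxykinase gene Pck2 (0.799), the matrix gene Fbln1 (0.793), the corepressor gene Ski (0.779) and the protease gene Bace2 (0.775). For Npr2 they were Wdr76 (0.71), Fam76a (0.678), Lamtor2 (0.645), Wdr25 (0.638) and the oxytocin gene Oxt (0.634). For the dim Npr1 they were Arhgef40 (0.788), Ttc9c (0.741), the apelin receptor gene Aplnr (0.724), Ncbp2 (0.706) and Cnot4 (0.702). Without the treated controls r ran from 0.774 to 0.857 for the Npr3 genes and from 0.69 to 0.77 for the Npr1 genes. For the Npr2 genes it was then 0.701, 0.538, 0.685, 0.548 and 0.57, in the order named.

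Of 8 genes of peptide processing and clearance, 7 were measured and none passed the adjusted test in any comparison. At an unadjusted p under 0.05 the list had 1 gene lower in del337TR under treatment (background for lower 3.61%) and none in the other comparisons. That gene was Mme, which encodes neprilysin, the protease that degrades the peptides. Its group medians were 181.8 in controls, 287.9 in treated controls, 171.0 in del337TR and 177.2 in treated del337TR, and its difference was -0.56 ± 0.26 (SE; limma adjusted p = 0.538). Corin, which activates the peptide precursors, had medians of 2863.7, 2474.9, 3083.9 and 2600.2, so both treated medians were the lower of their strain. Its WY14643 difference was -0.20 ± 0.10 (SE; adjusted p = 0.874) in del337TR and -0.18 ± 0.10 (SE; adjusted p = 0.77) in controls. Ide, the insulin-degrading enzyme, stood at -0.10 ± 0.08 and Dpp4, which removes dipeptides from the start of peptides, at 0.21 ± 0.22 for WY14643 in del337TR.

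All 11 genes of cyclic GMP signalling, the step after the receptors, were measured, and none passed the adjusted test. With WY14643 in controls, 1 of 11 log2 differences was above 0, where 44.6% of all probe sets were. The list median was -0.19 against -0.03 over all probe sets, but no gene had an unadjusted p under 0.05 (background 6.75%). With WY14643 in del337TR 2 of 11 were lower at that level (background for lower 2.83%), both subunits of soluble guanylate cyclase, the enzyme that answers to nitric oxide. Gucy1a1 had a median of 363.3 in del337TR and 222.3 with treatment, a difference of -0.77 ± 0.24 (SE; adjusted p = 0.767), and Gucy1b1 stood at -0.45 ± 0.17 (SE; adjusted p = 0.813). Nos3, the endothelial nitric oxide synthase, stood at -0.26 ± 0.10 (SE; adjusted p = 0.999) for strain without treatment, the only gene of the list at an unadjusted p under 0.05 there (background for lower 2.35%). Under treatment Vasp, a substrate of the cyclic GMP-dependent kinase, stood at 0.45 ± 0.15 (SE; adjusted p = 0.428), and Pde2a, a phosphodiesterase, at -0.25 ± 0.11 (SE; adjusted p = 0.50); these were the list's 2 genes at that level (background for higher 5.25%, for lower 3.61%).

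All 11 cardiac transcription factors were measured and none passed the adjusted test. At an unadjusted p under 0.05, 1 was higher for strain without treatment (background for higher 1.66%), 1 was lower with WY14643 in controls (background for lower 4.36%) and 1 was lower with WY14643 in del337TR (background for lower 2.83%). For strain under treatment 1 was higher (background for higher 5.25%) and 1 was lower (background for lower 3.61%). Tbx20, a T-box factor, was named by both comparisons that hold the treated controls, at -0.27 ± 0.12 (SE; adjusted p = 0.727) in controls given WY14643 and 0.39 ± 0.12 (SE; adjusted p = 0.405) for strain under treatment. Hand2 stood at -0.86 ± 0.31 (SE; adjusted p = 0.783) for WY14643 in del337TR, Mef2a at 0.19 ± 0.09 (SE; adjusted p = 0.999) for strain without treatment, and Tbx5 at -0.55 ± 0.26 (SE; adjusted p = 0.559) for strain under treatment. Gata4, whose letters are marked in the promoters above, stood at -0.16 ± 0.19 (SE) in controls given WY14643 and 0.06 ± 0.19 (SE) for strain under treatment.

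Of 10 stretch and fetal genes, which like the peptides are used as markers of load, 9 were measured and none passed the adjusted test. For strain under treatment 8 of 9 differences were above 0, where 55.6% of all probe sets were. The list median was 0.33 against 0.04 over all probe sets. At an unadjusted p under 0.05, 5 of 9 were higher (background for higher 5.25%). These were Ccn2, a matricellular growth factor (1.197 ± 0.393, SE), Myh7, the slow myosin heavy chain (1.14 ± 0.38), skeletal actin Acta1 (0.45 ± 0.19), Ankrd1 (0.33 ± 0.15) and Fhl1 (0.29 ± 0.13), with adjusted p values between 0.428 and 0.515. The list was chosen with earlier results of these data known, so its direction is not independent evidence. With WY14643 in controls 2 of 9 were lower at that level (background for lower 4.36%), Ccn2 (-0.87 ± 0.39, SE) and the actin crosslinker Actn1 (-0.22 ± 0.10), each with an adjusted p of 0.735. Actn1 was also the list's 1 gene at that level with WY14643 in del337TR (-0.38 ± 0.10, SE; adjusted p = 0.767; background for lower 2.83%).

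The treated controls also covered a wide range for Myh7 and Ccn2, but for these genes, unlike Nppa, the untreated controls did so as well. Myh7 ran from 3920.7 to 18817.1 in treated controls (median 6007.0) and from 3102.7 to 20991.8 in untreated controls (median 14892.9). Ccn2 ran from 1094.8 to 8893.7 in treated controls (median 1612.9) and from 1684.3 to 7591.5 in untreated controls (median 6219.3). For Myh7 the lowest untreated control lay below every treated control. For Ccn2 it lay just above the treated median (1684.3 against 1612.9), and for Nppa it lay above 4 treated controls. So for Ccn2, as for Nppa, most treated controls lay below every untreated control.

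**Figure D5:**
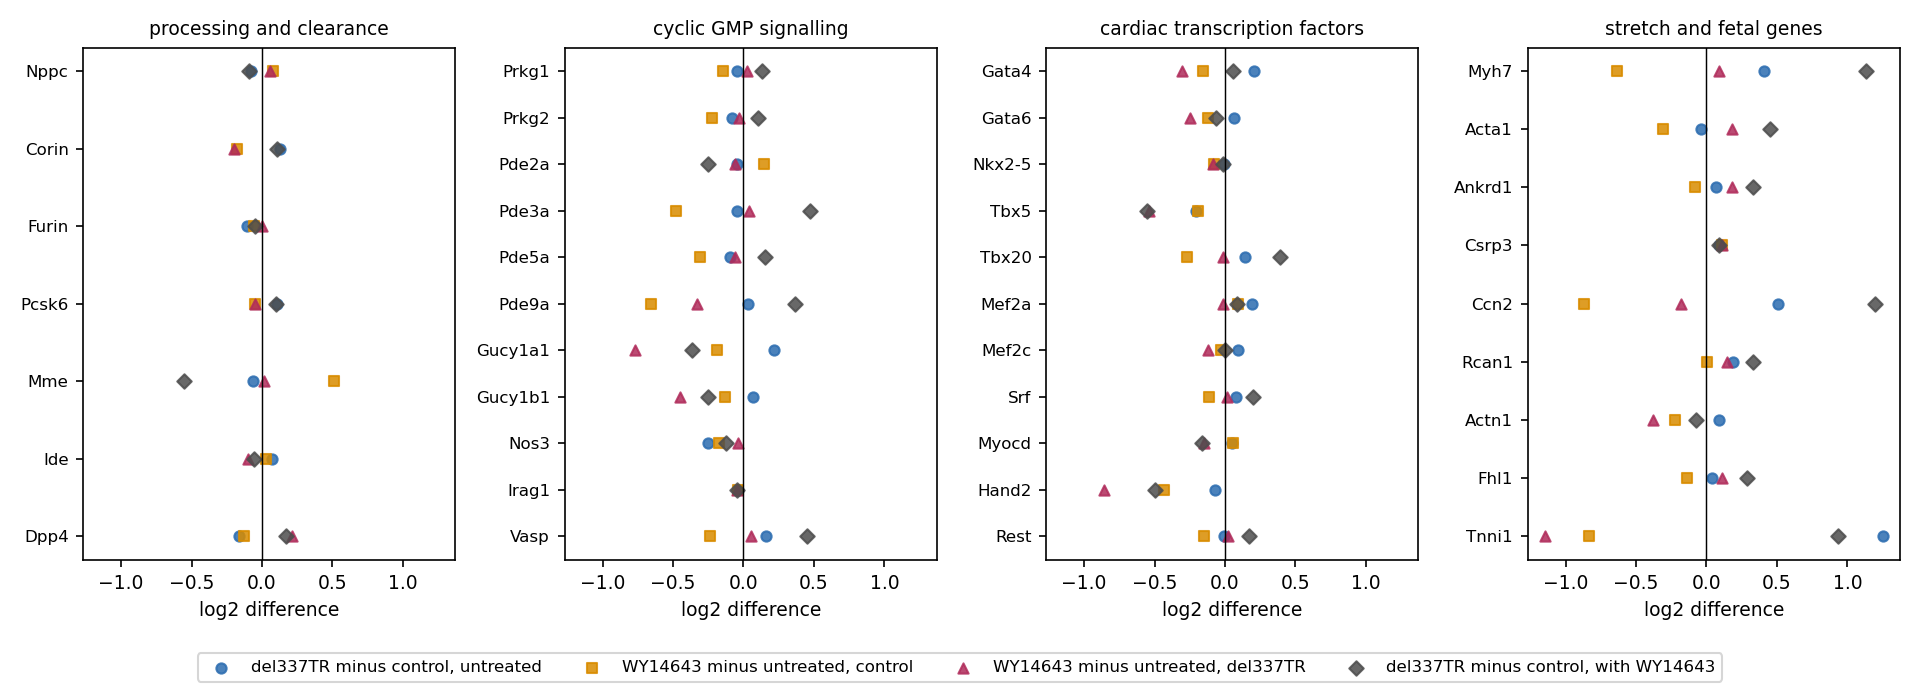
Log2 differences of the measured genes of the 4 pathway lists in the 4 group comparisons, each gene by its brightest probe set; no gene passed the adjusted test. In the stretch and fetal list the points for strain under treatment lie to the right of 0 for 8 of 9 genes (55.6% of all probe sets). The points for WY14643 in controls lie to the left for 7, where 44.6% of all probe sets lay to the right.

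Markers of other cell types were set beside these values, and their part in the results was not tested. Linear signals were summed, so bright markers counted most, as did Dcn (geometric mean 11772.0) among the fibroblast markers. As single markers, 6 of 7 fibroblast genes had a log2 difference above 0 for strain without treatment (47.8% of all probe sets), with Col1a1 at -0.22. For strain under treatment 7 of 7 did (55.6% of all probe sets). The summed signal of 7 fibroblast markers had medians of 18266.8 in controls, 17941.7 in treated controls, 20983.7 in del337TR and 20168.5 in treated del337TR, with the higher medians in the strain, as for Npr3 (brightest probe set). The sum of 5 leukocyte markers had medians of 3621.9, 3443.2, 3890.3 and 4037.6 in the same order, also higher in the strain. The sum of 7 smooth muscle and pericyte markers had medians of 10290.7, 11236.8, 11848.5 and 10473.4, and that of 3 mesothelial markers had 335.8, 299.6, 305.5 and 233.7. The sum of 8 endothelial markers had medians of 4138.6, 3978.4, 3993.8 and 4295.2. Of 6 adipocyte markers 4 were measured, and their sum ran from 153.0 to 302.9 in treated controls and from 69.1 to 206.0 in treated del337TR, with medians of 180.6, 192.3, 250.5 and 151.0 in controls, treated controls, del337TR and treated del337TR.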

How the data were processed

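Total RNA from 28 hearts was hybridised to Affymetrix arrays, 1 animal per array. The authors deposited linear signal intensity per probe set, globally scaled as the values show (trimmed mean 250.0 per array, 2% trimmed at each end). RMA is named in the submitters' processing notes, but the deposited intensity values are not on a log2 scale; the software behind them is not given in the sources used here, and the number of arrays limits the precision. After 64 control probe sets were left out, values were floored at 0.1, turned to log2 and fitted with limma 3.58.1 (R 4.3.3; lmFit, contrasts.fit and eBayes; 4 group means, no block, 24 residual degrees of freedom), with Benjamini-Hochberg adjustment over 45037 probe sets. The fit was tested on simulated data. Symbols came from the platform annotation. A gene with several probe sets is represented by the one with the highest mean, unless its probe sets are named. Permutation tests used 100000 resamples within groups, or all arrangements for ratios. Their ranks and Benjamini-Hochberg adjustment came from scipy 1.17.1, and figures used matplotlib 3.10.9.

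The members and lists were chosen with earlier results of these data known. Named genes were every member, up to 4 genes per pathway list with the smallest unadjusted p in the group comparisons, and per member the 5 most alike genes, with the 3 most opposed for each peptide. Ankrd1, Fhl1, Pde2a and Gata4, and the ratio and atrial score tests, were added after values were seen. Alternatives are given in the closing section. Same-numbered hearts were not treated as paired: over 42 same-numbered pairs the correlation of deviations ran from -0.122 to 0.19, with 5 pairs over 0.1. Yet 10 hearts correlated best with a heart of their own number, where their share of the other groups' hearts would give 4. The permutation tests of ratios and correlations ignored the numbers, and their results with hearts matched by number were not tested.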

Additional observations from a re-analysis of the deposited data

Results flagged for a closer look

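In 2 of the 28 groups of 7 values (7 probe sets in 4 groups) 1 heart stood far from the rest by Dixon's ratio of gap to range, taken on linear signals. Chance alone gives such a heart in a few percent of groups. Both concern Nppb. In untreated del337TR, replicate 5 had a signal of 11831.7, and the gap to its neighbour was 0.616 of the group's range. Without it the untreated strain difference of Nppb was 0.46 ± 0.27 (SE) in place of 0.55. In treated del337TR, replicate 1 had a signal of 4581.8, with a gap of 0.605 of the range; this heart also had the lowest Nppa signal of its group, 7564.1. Without it the WY14643 difference of Nppb in del337TR was 0.49 ± 0.25 (SE) in place of 0.31, and the strain difference under treatment was 0.59 ± 0.25 (SE; limma adjusted p = 0.515) in place of 0.40.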

How the results depend on the processing

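The count of member probe sets past the adjusted threshold was 0 in all 38 settings of each group comparison and in all 37 of the difference of effects (whose fit holds all 4 groups in any case), with lowest adjusted p values of 0.994 (strain, untreated), 0.444 (WY14643 in controls), 0.804 (WY14643 in del337TR), 0.229 (strain under treatment) and 0.885 (difference). Of 25 member differences, 17 kept their sign throughout and 8 did not, in 32 of 940 values. The 8 had a size of at most 0.288, and the cause was not tested. With 1 heart left out, the range was -0.104 to 0.108 for Nppa with WY14643 in del337TR, -0.321 to 0.038 for the difference of effects on Nppb, -0.054 to 0.676 for Npr1 between untreated strains, -0.177 to 0.581 for the difference of effects on Npr1, -0.059 to 0.03 for Npr2 with WY14643 in controls, -0.046 to 0.023 for Npr2 between treated strains and -0.044 to 0.126 for Npr3 with WY14643 in del337TR. With the atrial score as covariate Nppa with WY14643 in del337TR was 0.051. With sex, read from Xist and Eif2s3y, as covariate Npr2 between treated strains was 0.003 and Npr3 with WY14643 in del337TR was -0.037, which with the mean of its probe sets was -0.082. Sex so read was mixed in every group but not balanced. Xist above Eif2s3y was most frequent in del337TR and least frequent in treated del337TR. Npr2 with WY14643 in controls was 0.012 after quantile normalization and 0.05 after median centring, which gave -0.042 for its difference of effects. Without the treated controls, r was 0.151 for Nppa with Npr1, -0.142 for Nppb with Npr3 and -0.0617 for Npr2 with Npr3, from -0.197, 0.0726 and 0.0293.

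With 1 heart left out, the Nppa difference for WY14643 in controls ran from -0.885 to -0.496, and the difference of the dimmest Npr3 probe set from -0.907 to -0.749 (adjusted p 0.444 to 0.877). The Npr1 difference for WY14643 in del337TR, 0.974, was 0.413 with 16 added to each signal and 0.625 to 1.318 with 1 heart left out. The Npr3 ratio difference was -0.469 with 16 added to each signal (exact permutation p = 0.00117) and ran from -0.679 to -0.576 with 1 heart left out.

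With the replicate number as a replicate block, the Nppa differences were -0.699 ± 0.291 (adjusted p = 0.677) for WY14643 in controls and 0.889 ± 0.291 (adjusted p = 0.401) between treated strains, and no call changed. The numbers were not taken as pairing, since 5 of 42 same-numbered pairs had a correlation of deviations over 0.1 (median 0.0328, against -0.00293 for other numbers). Yet 10 of 28 hearts correlated best with a heart of their own number, where their share of the other groups' hearts would give 4, a hint from the data that same-numbered hearts share something. For WY14643 in controls, the block lowered the SE of Npr2 from 0.089 to 0.073 and that of Nppa from 0.301 to 0.291. It raised the SE of Nppb from 0.264 to 0.267, of Npr1 from 0.719 to 0.752 and of Npr3 (brightest probe set) from 0.177 to 0.186.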
